A study of Homo sapiens with 12 samples.

Results

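ATP-binding cassette (ABC) transporters are membrane proteins that use ATP to move lipids, drugs, conjugates, heme compounds or peptides across membranes, and a few relatives without a membrane domain act on ribosomes. The family was followed in A498 cells, an established human kidney carcinoma line, after siRNA against ELOVL2, ELOVL5 or both, enzymes that lengthen polyunsaturated fatty acids. Members were the genes whose symbol is ABCA, ABCB, ABCC, ABCD, ABCE, ABCF or ABCG followed only by a number, which gave 46 of the 57773 genes in the deposited table. RNA had been sequenced from 12 libraries, with 3 biological replicates each of cells given a control siRNA, siELOVL2, siELOVL5 or both siRNAs (the double knockdown). All groups had been transfected. The labels do not state the siRNA sequences, their dose or the time to harvest, and the study holds 1 cell line.

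Members of the A and G subfamilies, with ABCB4, mostly export lipids: ABCA1 and ABCG1 hand cholesterol to lipoprotein acceptors, and ABCA12 loads ceramides for the skin barrier. Members of the D subfamily sit in peroxisomes, where they import fatty acids for shortening, or, for ABCD4, in lysosomes. ABCB1, ABCG2 and several ABCC proteins pump drugs, bile pigments and glutathione conjugates out of cells, and in the kidney tubule they secrete such compounds into urine. ABCB8 and ABCB10 lie in mitochondria, and ABCB6 has been placed in mitochondria and in other membranes and handles porphyrins.

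Values are the authors' quantile-normalized counts, which have the same total of 8.525 M in each library. Estimated depth before that step was 6.703 to 10.681 M reads, and a gene without any read could hold a value of up to 0.917. ELOVL2 stood at 269.9 ± 50.7 (SD, n = 3) in control, 25.2 ± 6.05 with siELOVL2 and 23.9 ± 3.53 with both. ELOVL5 stood at 1977 ± 53.2 in control, 148 ± 7.43 with siELOVL5 and 179 ± 7.50 with both. All 10 kidney and renal carcinoma markers were detected. Their summed value was 36441 to 36796 in control, 28988 to 30052 with siELOVL2, 28723 to 35227 with siELOVL5 and 26847 to 31267 with both. The median log2 change of the 10 against control was -0.28, -0.08 and -0.27 with siELOVL2, siELOVL5 and both. CDH2 alone reached an adjusted p under 0.05 in limma against control, lower with siELOVL2 and with both. The part of these marker changes in the results below was not tested. The summed value of 5 leukocyte markers was at most 9.67 in any library, with CD3E at 0 throughout. That of the endothelium markers found was at most 7.17. The fibroblast and pericyte markers were not near 0. Their summed value was 362 to 460.0 in control, 268 to 355 with siELOVL2, 399 to 444 with siELOVL5 and 275 to 325 with both. siELOVL5 replicate 3 lay furthest from its group over all genes with a mean of at least 50, with a median absolute log2 difference of 0.234, and over the members double knockdown replicate 3 lay furthest, at 0.351. Counts of calls are also given without them.

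Of the 46 members, 39 reached a value of 1 in at least 3 libraries and were tested with limma on log2(value + 1), across 18648 genes. A member is called changed when its Benjamini-Hochberg adjusted p is under 0.05. This fit used group means alone. With replicate number as a block more members were called, 10 rather than 2 with both siRNAs against control, as given at the end. The 7 untested members were ABCA8, ABCB5, ABCB11, ABCC8, ABCC12, ABCC13 and ABCG8. Reads per gene, here and below, are estimates from the order of tied normalized values. ABCC12 and ABCC13, the latter a transcribed pseudogene in GENCODE 29, had no read in any library. The other untested members had 1 to 6 reads over all 12 libraries. Among the tested members 28 had a mean value of at least 50, and 11 lay below it. These 11 were ABCA4, ABCA6, ABCA9, ABCA10, ABCA13, ABCC9, ABCC11, ABCD2, ABCG1, ABCG4 and ABCG5, and they rested on 10 reads (ABCG5) to 134 reads (ABCA10) over all libraries.

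The control cells carried mainly mRNAs of multidrug resistance-associated proteins and of ABCA1. Per kilobase of exon, which allows levels of different genes to be compared, ABCC3 led with 621.7 ± 63.3 normalized counts (SD, n = 3). Close to it were ABCC1 at 584.3 ± 15.5, ABCA1 at 581.3 ± 50.7 and ABCC2 at 527.6 ± 78.3. The ranges of these 4 over the control libraries overlapped, though the means of ABCC3 and ABCC2 lay outside the ABCC1 range of 575.0 to 602.2. ABCF2, which has no membrane domain, followed at 399.4 ± 3.79. ABCD3, the abundant peroxisomal member, reached 243.9 ± 9.23 per kilobase. The drug pumps ABCG2 and ABCB1 stood at 82.6 ± 6.51 and 69.3 ± 6.12. ABCA3 was the lowest of the 28 members, at 13.1 ± 1.11, and ABCA10 came next at 1.04 ± 0.67. Control cells thus showed a gap of over 10-fold between the 28 members and the 11 low ones. ABCG1, which works beside ABCA1 in cholesterol efflux, and ABCD2, a peroxisomal importer, were both among the low ones, with 1 to 7 reads per library each. Lengths are from GENCODE 29, which may differ from the annotation used by the authors.

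**Figure D1:**
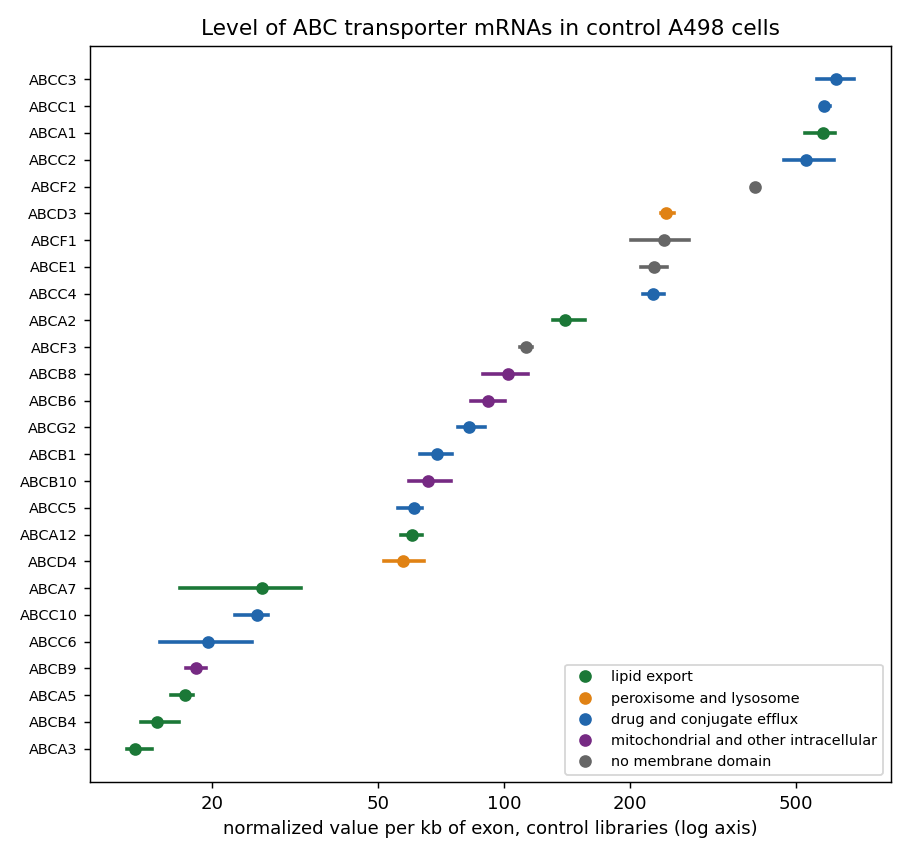
Level per kilobase of exon of 26 of the 28 members with a mean of at least 50, in control libraries, on a log axis; points are means of 3 libraries and lines run from the lowest to the highest library. ABCC3, ABCC1, ABCA1 and ABCC2 lie together at the top, between 527.6 and 621.7, and ABCA3 is lowest at 13.1.

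With siELOVL2 the breast cancer resistance protein ABCG2, which exports drugs, urate and porphyrins, was called higher, and it was the only one of the 39 tested members to be called (1.36% of all tested genes were called). ABCG2 read 433, 372 and 388 in control replicates 1, 2 and 3, and 739, 587 and 589 in the siELOVL2 replicates. The siELOVL5 replicates read 360.4, 265 and 279, and the double knockdowns 639, 565 and 471. Every siELOVL2 and double knockdown library lay above every control library, and every siELOVL5 library lay below. The siELOVL2 change was 0.68 on the log2 scale (SE 0.14, limma adjusted p = 0.0344), and its call was lost when any of 7 libraries was left out. Adjusted p was then 0.091, 0.165 and 0.106 without control replicates 1, 2 and 3, 0.129, 0.0918 and 0.0888 without siELOVL2 replicates 1, 2 and 3, and 0.0615 without double knockdown replicate 2. The change stayed between 0.57 and 0.74 in these fits, and without the intensity trend adjusted p was 0.11. In bulk RNA a change in the share of cells with a transcript and a change per cell cannot be told apart.

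The same siRNA gave a like difference when siELOVL5 was present. ABCG2 was higher in the double knockdown than with siELOVL5 alone by 0.89 (SE 0.14, limma adjusted p = 0.00625), the only member called there (2.77% of all tested genes). It was lower with siELOVL5 than with siELOVL2 by a log2 change of -1.08 (SE 0.14, limma adjusted p = 0.00141). Both of these calls held without each of the 12 libraries in turn, and both were lost when only the groups compared were fitted (adjusted p = 0.135 and 0.0598). Against control, the siELOVL5 value of -0.41 (limma adjusted p = 0.382) and the double knockdown value of 0.48 (limma adjusted p = 0.078) did not pass. The interaction, which asks whether both siRNAs together differ from the sum of each alone, was 0.21 (SE 0.20, limma adjusted p = 0.996) for ABCG2. No member was called for the interaction by limma (0% of all tested genes were called). In that fit 0 members had an unadjusted p under 0.05, beside 522 of all 18648 tested genes.

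**Figure D2:**
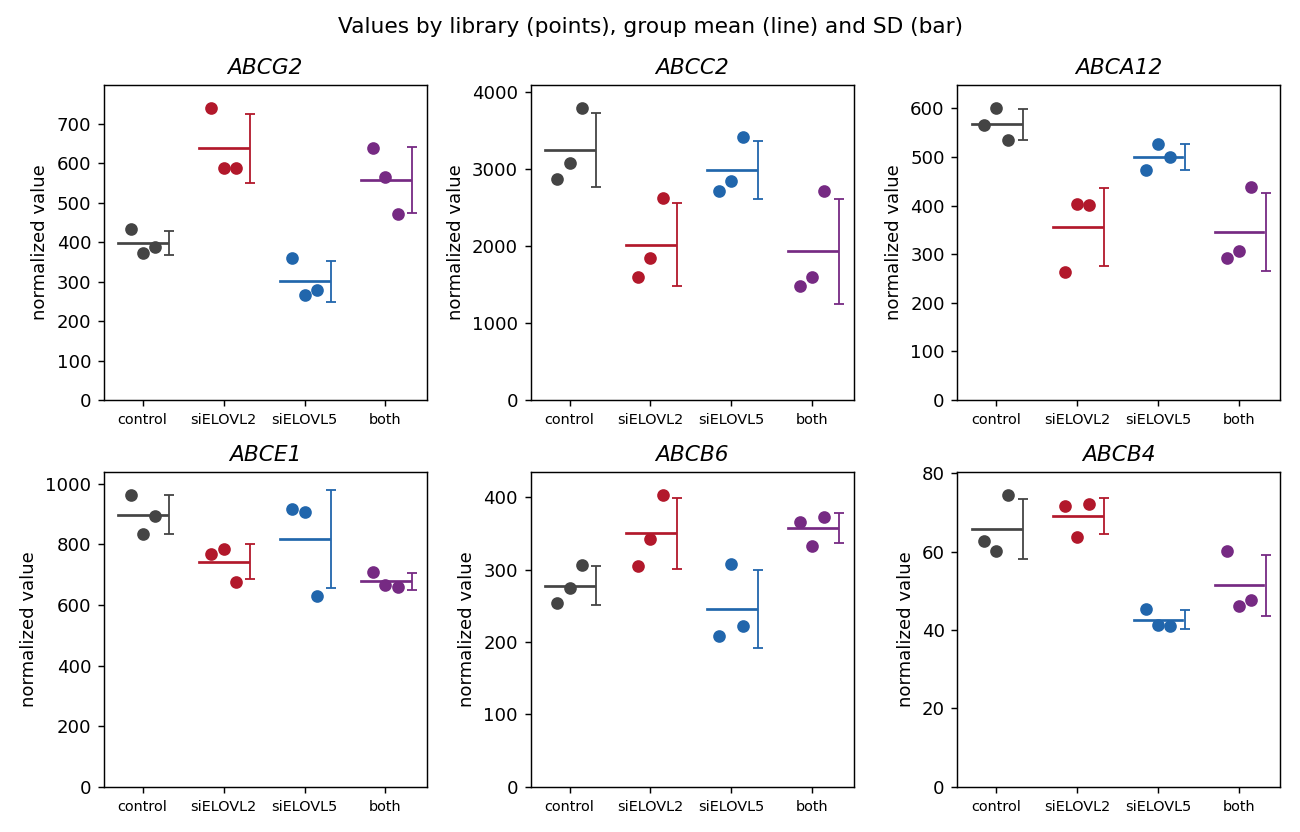
Normalized value in each of the 12 libraries for 6 members; points are replicates 1 to 3 from left to right, horizontal lines are group means and bars are SD. ABCG2 is high in both groups that received siELOVL2 (471 to 739) and at most 433 elsewhere, ABCC2 and ABCA12 are low in the same groups, and ABCB4 is lowest with siELOVL5 (41.0 to 45.4).

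The canalicular conjugate pump ABCC2, which moves bilirubin glucuronides and glutathione conjugates, and the ceramide transporter ABCA12 had the 2 lowest changes with siELOVL2 among the 28 members. ABCC2 read 2874, 3076 and 3791 in control, 1593, 1845 and 2624 with siELOVL2, 2710, 2844 and 3424 with siELOVL5, and 1486, 1596 and 2712 with both. All siELOVL2 libraries lay below all controls, and double knockdown replicate 3 lay above the lowest siELOVL5 library by 2 units. The ABCC2 change was -0.71 (SE 0.22, limma adjusted p = 0.152) with siELOVL2 and -0.79 (limma adjusted p = 0.0618) with both, neither of which passed in the fit by group means alone. For the double knockdown the call was made without siELOVL2 replicate 3 (adjusted p = 0.0469), siELOVL5 replicate 3 (0.0419) or double knockdown replicate 3 (0.00937).

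ABCA12 read 565, 600.3 and 535 in control, 264, 404 and 401 with siELOVL2, 473, 526 and 501 with siELOVL5, and 293, 307 and 438 with both. Every library that had received siELOVL2 lay below every library that had not. ABCA12 fell in the double knockdown by 0.73 (SE 0.17, limma adjusted p = 0.0295), and the siELOVL2 value was -0.69 (limma adjusted p = 0.0676). The double knockdown call was lost without control replicates 1, 2 or 3 (adjusted p = 0.0988, 0.117 and 0.0623) and without double knockdown replicates 1 or 2 (0.118 and 0.113). It was also lost without the intensity trend (0.0899) and with only the groups compared (0.0594). Without siELOVL5 replicate 3 or double knockdown replicate 3, ABCA12 was also called with siELOVL2 (adjusted p = 0.0432 and 0.033).

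Short words in the 3′ untranslated regions (3′ UTRs) of ABCA12 and ABCC2 are shown because they were among the words ranked lowest by the siELOVL2 change of other transcripts, and ABCC2 shares its words with ELOVL2. Words of 7 bases in GENCODE 29 3′ UTRs were ranked, after the data had been seen, by the median siELOVL2 change of the non-member genes that carry them. Of 15591 words, rank 1 went to ACGAATA. At rank 2 stood the word ACGATAA, and rank 3 was held by a word shifted from it by a single base, CACGATA. Capitals mark the word, or for ABCC2 and ELOVL2 both overlapping words, in GRCh38 coordinates, read on the transcript strand.
ABCA12, chr2:214931744-214931770, minus strand: tggagggaaaACGAATAtgaagataat
ABCC2, chr10:99851877-99851904, plus strand: tcctgaatttCACGATAAttattccttt
ABCC6, chr16:16150026-16150052, minus strand: gatagctccaCACGATAttgagtctag
ELOVL2, chr6:10982667-10982694, minus strand: ggtcatgagcCACGATAAaaaatgccag
The 179 carriers of ACGAATA had a median siELOVL2 change of -0.17, the 143 of ACGATAA -0.15 and the 126 of CACGATA -0.13, beside 0.02 over all 9581 genes scanned. The ranking chose the words by this change, so their low medians are no finding, and no chance level for the lowest of so many words was computed. In both siRNAs against siELOVL5 alone, whose libraries the ranking had not used, the carriers' medians were -0.22, -0.21 and -0.20, beside 0.03 over all genes scanned, with no test made. At least 1 of the words was found in 404 of these genes (4.22%) and in 3 of 39 tested members (7.69%), searching the transcript strand. The genes scanned had a mean of at least 50, and the 39 members had no such limit. All 3 members with a word were among the 28 at that level, so the shares come from unlike sets. ABCC6, the third member with a word, an organic anion pump whose loss causes ectopic calcification, had a siELOVL2 change of -0.14 (limma adjusted p = 0.927). ABCC6 also has near-identical pseudogenes, so its value is uncertain. The match is a description of letters, and its part in the ABCA12 and ABCC2 values was not tested.

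In the double knockdown 2 of 39 members were called (4.42% of all tested genes were called), among them ABCA12, as given above. The peroxisomal and lysosomal members ABCD3 and ABCD4 gave no call in any comparison. ABCD3, which imports branched-chain and dicarboxylic acids, ranged from 889 to 952 in control and 821 to 967 with siELOVL2, from 612 to 901 with siELOVL5 and 809 to 881 with both. The lysosomal vitamin B12 transporter ABCD4 ranged from 155 to 193 in control and 143 to 225 elsewhere. Among 12 genes of peroxisomal import and oxidation, 11 were tested. None was called by limma with either siRNA alone, and the fatty acid elongase ELOVL1 and the acyl-CoA synthetase SLC27A4 were called higher with both. ELOVL1 averaged 523 ± 43.6 in control and 667 ± 32.2 with both (0.35, SE 0.08, limma adjusted p = 0.0328). SLC27A4 averaged 264 ± 15.4 and 367 ± 21.1 (0.48, SE 0.09, limma adjusted p = 0.0137). SLC27A2 was listed at 0 in every library.

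**Figure D3:**
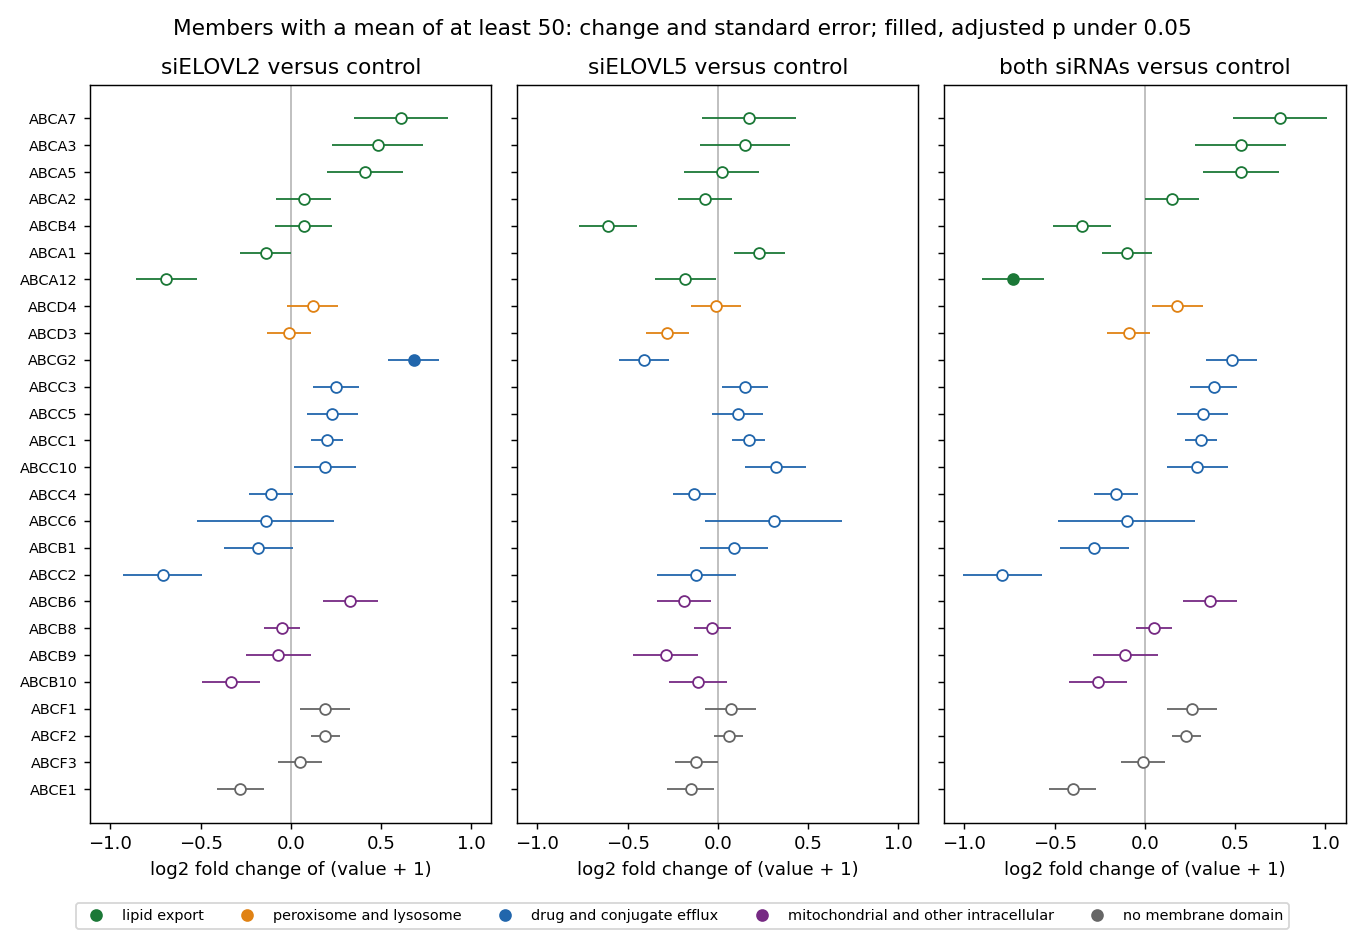
Log2 fold change of value + 1 against control for 26 of the 28 members, grouped by role, in the 3 knockdown groups; points are limma estimates, bars are SE, and filled points have an adjusted p under 0.05. ABCG2 is filled with siELOVL2 (0.68), none is filled with siELOVL5, and ABCA12 (-0.73) is filled with both.

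siELOVL5 gave no call in the family against control in limma (0.139% of all tested genes were called). There 4 of 39 members had an unadjusted p under 0.05, beside 1783 of all 18648 tested genes. ABCB4, the phosphatidylcholine floppase of bile, came nearest among the 28 members. ABCB4 read 62.8, 60.1 and 74.4 in control, 71.5, 63.7 and 72.0 with siELOVL2, 45.4, 41.2 and 41.0 with siELOVL5, and 60.2, 46.2 and 47.7 with both. The siELOVL5 libraries lay below all others, and the double knockdown overlapped control by a single library. The siELOVL5 change was -0.61 (SE 0.16, limma adjusted p = 0.251). Between the single knockdowns, ABCB4 was lower with siELOVL5 by a log2 change of -0.68 (SE 0.16, limma adjusted p = 0.0423), and with ABCG2 it made up the 2 members called (3.01% of all tested genes). That call was lost without any of 10 libraries. Adjusted p was 0.0612, 0.0627 and 0.0524 without control replicates 1, 2 and 3, and 0.116, 0.111 and 0.149 without siELOVL2 replicates 1, 2 and 3. It was 0.0804, 0.0905 and 0.0654 without siELOVL5 replicates 1, 2 and 3, and 0.0581 without double knockdown replicate 2. Median ratio rescaling gave 0.0509, and fitting only the groups compared 0.147.

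Adding siELOVL5 to siELOVL2 gave no call among members in limma (0.0590% of all tested genes). There 1 member, ABCB4, had an unadjusted p under 0.05, beside 672 of all 18648 tested genes. The ABCB4 value there was -0.43 (SE 0.16, limma adjusted p = 1.00), with the groups apart.

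The cholesterol exporter ABCA1 was not called in any comparison. It read 6764, 6972 and 5897 in control, 6787, 6447 and 4788 with siELOVL2, 7230, 7685 and 8040 with siELOVL5, and 6841, 6465 and 5097 with both. The siELOVL5 libraries lay above all others and the remaining groups overlapped. Its siELOVL5 change was 0.23 (SE 0.14, limma adjusted p = 0.613), and the difference between the single knockdowns was 0.36 (SE 0.14, limma adjusted p = 0.183). ABCA7, a phospholipid exporter related to ABCA1, ranged from 116 to 227 in control and 207 to 329 with siELOVL2, from 163 to 222 with siELOVL5 and 240.2 to 401 with both. Its values were 0.61 (SE 0.26, limma adjusted p = 0.318) with siELOVL2 and 0.75 (SE 0.26, limma adjusted p = 0.127) with both. ABCA2, of late endosomes, lay between 1014 and 1648 in all libraries and gave at most 0.15 against control.

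ABCA3, which packs surfactant lipids in lung, and ABCA5 shared one pattern across the libraries. ABCA3 ranged from 84.8 to 98.0 in control, 113 to 132 with siELOVL2 and 112 to 164 with both. With siELOVL5 it read 77.1, 77.7 and 163. ABCA5 ranged from 147 to 166 in control, 201 to 232 with siELOVL2 and 178 to 264 with both, and read 128, 137 and 234 with siELOVL5. The third siELOVL5 library alone was high for both genes. Without it, both were called in the double knockdown against control at 0.53 each (limma adjusted p = 0.0464 for ABCA3 and 0.0338 for ABCA5), and with all libraries neither was (adjusted p = 0.274 and 0.182). The part of whatever sets that library apart was not tested.

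Across the whole lipid export group, 15 of 17 members were tested and 7 had a mean of at least 50. None was called with siELOVL2 or siELOVL5 alone, and ABCA12 was the single call with both. The sterol efflux list held 15 genes, of which 14 were tested. LXR alpha and LXR beta, the oxysterol receptors that drive ABCA1 (NR1H3 and NR1H2), changed by at most 0.17 in size against control and were not called. Their obligate partner RXRA fell with siELOVL5, from 1486 ± 41.2 to 885 ± 50.3 (-0.75, SE 0.08, limma adjusted p = 0.0011), and also fell with both (-0.32, SE 0.08, limma adjusted p = 0.0362). RXRB rose with siELOVL2 from 191 ± 16.2 to 268 ± 16.7 (0.49, SE 0.11, limma adjusted p = 0.0415) and with both (0.48, limma adjusted p = 0.0236).

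Among 13 drug and conjugate pumps, 10 were tested, and ABCG2 was the single call against control. The multidrug resistance-associated proteins ABCC1, ABCC3 and ABCC5 had positive values in all 3 knockdown groups, and none was called in the fit by group means alone. ABCC1 ranged from 3791 to 3971 in control, 4058 to 4844 with siELOVL2, 4087 to 4590 with siELOVL5 and 4390 to 5284 with both. Every knockdown library exceeded every control, with 0.20, 0.17 and 0.31 (SE 0.09 each, limma adjusted p = 0.341, 0.576 and 0.0677). Without siELOVL5 replicate 3 the double knockdown value of ABCC1 passed (adjusted p = 0.0299). It also passed with the replicate block (0.00537) and with library weights (0.0148). ABCC3, a basolateral pump for glucuronides, ranged from 3610 to 4417 in control and 4583 to 6334 with both (0.38, SE 0.13, limma adjusted p = 0.129). The prostaglandin and cyclic nucleotide exporter ABCC4 lay between 1135 and 1552 in all libraries, with values of -0.16 to -0.11. P-glycoprotein, ABCB1, ranged from 311 to 371 in control, 241 to 345 with siELOVL2, 309 to 438 with siELOVL5 and 222 to 373 with both, and its values of -0.18, 0.09 and -0.28 were not called. ABCC10 had the highest siELOVL5 value of the 28 members, 0.32 (SE 0.17, limma adjusted p = 0.577), and its groups overlapped.

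Of 18 regulators and partners of drug efflux 17 were tested. With siELOVL2, 3 of them, GCLM, MVP and SLCO2B1, were called higher (1.36% of all tested genes were called). GCLM, a subunit of the enzyme that makes glutathione precursors, rose from 3764 ± 142 to 6320 ± 417 with siELOVL2 (0.75, SE 0.09, limma adjusted p = 0.00103), and the major vault protein MVP rose by 0.46 (SE 0.08, limma adjusted p = 0.013). The organic anion importer SLCO2B1 was called higher in all 3 groups, by 0.62, 0.63 and 0.96 (SE 0.10 each, limma adjusted p = 0.0119, 0.037 and 2.54e-04). With both siRNAs GCLC was also called higher and the cation transporter SLC22A3 lower, at 763 ± 168 in control and 403 ± 119. The oxidative stress factor NFE2L2 stood at 2044 ± 18.8 in control and 2119 ± 131 with siELOVL2, without a call. GSTP1 was listed at 0 in every library.

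Over the 12 libraries, the 5 tested genes whose log2 values followed ABCG2 most closely were CTSL (Pearson r = 0.986), HMOX1 (0.954), FAM73A (0.948), EBAG9 (0.934) and FBXO30 (0.931). These correlations are descriptions over libraries that share 4 treatments. HMOX1, the heme-degrading enzyme, averaged 2820 in control, 15733 with siELOVL2, 1664 with siELOVL5 and 14515 with both, the same order of groups as ABCG2. CTSL, a lysosomal protease, averaged 3103, 3986, 2624 and 3715.

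The mitochondrial and intracellular members gave no call against control. The porphyrin transporter ABCB6 ranged from 254 to 306 in control, 305 to 403 with siELOVL2, 209 to 308 with siELOVL5 and 333 to 372 with both. The double knockdown libraries lay above all control and siELOVL5 libraries. Its values were 0.33 (SE 0.15, limma adjusted p = 0.347), -0.19 (0.711) and 0.36 (0.199) against control, and 0.55 (0.0624) for both against siELOVL5. ABCB8 lay between 457 and 586, and ABCB10, which aids heme synthesis, between 177 and 288. Neither was called. Of 12 iron and heme partners of these members, all tested, HMOX1 was called higher with siELOVL2 (2.48, SE 0.21, limma adjusted p = 9.52e-05) and with both (2.32, SE 0.21, limma adjusted p = 1.14e-04). The cysteine desulfurase NFS1 was called higher with both (0.55, SE 0.12, limma adjusted p = 0.0233). In GENCODE 29, 94.1% of ABCB6 exon length and 54.0% of ABCF2 exon length are shared with another annotated gene on the same strand. For ABCB9, 38.4% is shared with one on the opposite strand. No source used here gives the strand setting of the counting, and reads of such partners cannot be told apart.

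The 4 members without a membrane domain were not called in the fit by group means alone. ABCE1, which splits ribosomes after termination, ranged from 835 to 962 in control, 676 to 783 with siELOVL2, 628 to 915 with siELOVL5 and 659.8 to 708 with both. All siELOVL2 and double knockdown libraries lay below all controls, with -0.28 (SE 0.13, limma adjusted p = 0.364) and -0.40 (SE 0.13, limma adjusted p = 0.0966). Without siELOVL5 replicate 3 the double knockdown value passed (adjusted p = 0.00564). It also passed with the replicate block (0.028), with library weights (0.013) and with only the groups compared (0.0337). ABCF2 lay at 1402 to 1428 in control, 1574 to 1710 with siELOVL2, 1368 to 1529 with siELOVL5 and 1557 to 1852 with both, and every library that had received siELOVL2 exceeded every one that had not. ABCF1, which assists translation initiation, and ABCF3 overlapped control in all groups. With both siRNAs against control, ABCF1 was called with the replicate block (limma adjusted p = 0.0383) and ABCF2 with library weights (0.0126). None of the 9 ribosome recycling and eIF2 partners was called in any knockdown against control.

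Counting members whose 3 knockdown libraries all lay on one side of the 3 controls, 9 of the 28 did so with siELOVL2 (31.3% of all genes with a mean of at least 50). With siELOVL5 6 did (17.2%), and with both 14 did (35.5%). No test was made of these counts against the background. These 3 comparisons share the control libraries. The median change of the 39 tested members was 0.13, 0.02 and 0.18 with siELOVL2, siELOVL5 and both, beside 0.02, 0.00 and 0.02 over all tested genes. For the 28 members it was 0.07, -0.02 and 0.12, beside 0.02, -0.01 and 0.02 over genes with a mean of at least 50. Without siELOVL5 replicate 3 the members called numbered 3 with siELOVL2, 0 with siELOVL5 and 8 with both against control, and 4 for both against siELOVL5. Without double knockdown replicate 3 there were 2 with siELOVL2, 5 with both against control and 3 for both against siELOVL5.

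The effect of siELOVL2 can be read in 2 comparisons that share no library, siELOVL2 against control and both against siELOVL5. Of the 28 members 24 had the same sign in both (85.7%), beside 7775 of 10460 genes with a mean of at least 50 (74.3%), and the Pearson correlation across genes was 0.91 for the members and 0.72 for all these genes. Genes are not independent replicates, and no test was made of these shares. For siELOVL5, alone and on top of siELOVL2, 21 of 28 members had the same sign (75.0%, against 62.8%).

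**Figure D4:**
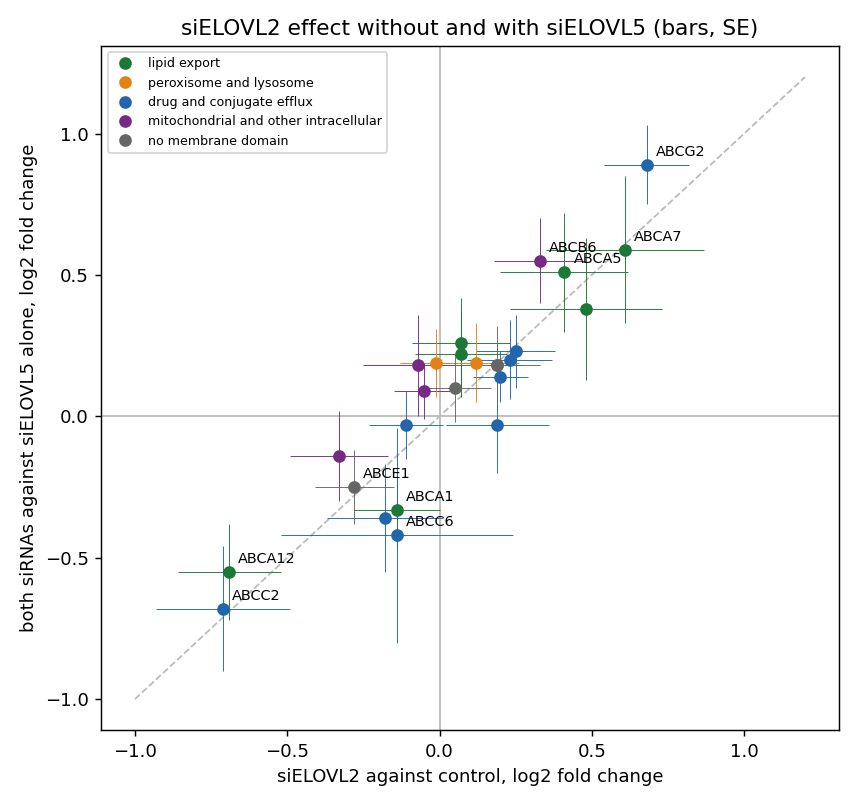
Log2 fold change with siELOVL2 against control (horizontal) and with both siRNAs against siELOVL5 alone (vertical) for 26 of the 28 members; bars are SE, the dashed line marks equal change and colours mark roles. ABCG2 (0.68 and 0.89) lies at the upper right and ABCC2 (-0.71 and -0.68) and ABCA12 (-0.69 and -0.55) at the lower left.

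The mean of these 2 comparisons, an average siELOVL2 effect over all 12 libraries, was added after the data had been seen. It called 6 of 39 members (9.08% of all tested genes were called). In limma 15 of the 39 had an unadjusted p under 0.05, beside 4351 of all 18648 tested genes. ABCG2 rose by 0.78 (SE 0.10, limma adjusted p = 5.23e-04). ABCA12 fell by 0.62 (SE 0.12, limma adjusted p = 0.00664) and ABCC2 fell by 0.69 (SE 0.16, limma adjusted p = 0.0151). These 3 calls held without each library in turn, and that of ABCC2 was lost without the intensity trend (adjusted p = 0.0551). ABCB6 rose by 0.44 (SE 0.10, limma adjusted p = 0.0187), a call lost without control replicate 1 (adjusted p = 0.0535) or siELOVL2 replicate 3 (0.0508), or without the intensity trend (0.0543). ABCA9, of unsettled function, had 48 reads in all libraries together and averaged 1.22, 6.25, 1.61 and 5.17 in control, siELOVL2, siELOVL5 and both. It rose by 1.56 (SE 0.45, limma adjusted p = 0.0479). Its call was lost in 9 of the 12 left-out fits. Adjusted p was 0.0913 and 0.116 without control replicates 1 and 2, 0.064, 0.117 and 0.0841 without siELOVL2 replicates 1, 2 and 3, 0.0826 and 0.0983 without siELOVL5 replicates 1 and 2, and 0.0893 and 0.101 without double knockdown replicates 1 and 3. Without siELOVL5 replicate 3 there were 10 calls, among them ABCA3, ABCA5 and ABCE1 (adjusted p = 0.00447, 0.00312 and 0.00164).

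Of the 28 members, 4 separated the 6 libraries with siELOVL2 from the 6 without it (9.82% of genes with a mean of at least 50 did so), among them ABCA12, ABCF2 and ABCG2. ABCA12 and ABCC2 varied together over the 12 libraries (Pearson r = 0.90), and ABCG2 opposite to both (r = -0.81 and -0.79). The corresponding average siELOVL5 effect gave no call among members in limma (0.450% of all tested genes). There 4 members had an unadjusted p under 0.05, beside 1789 of all 18648 tested genes. ABCB4 came nearest among the 28 (-0.52, SE 0.12, limma adjusted p = 0.098). In the average siELOVL2 effect 9.08% of all tested genes were called. Of the 11 tested peroxisomal partners 6 rose, PEX3, PEX19, ACAA1, SCP2, ELOVL1 and SLC27A4, by 0.25 (ELOVL1) to 0.51 (PEX3), and none fell. Of these 11, 0 were called with siELOVL2 against control and 1, PEX3, for both against siELOVL5. In the same average effect 3 of 14 sterol partners rose (RXRA, RXRB and NPC2). RXRA was not called with siELOVL2 against control, was called higher for both against siELOVL5, and fell with both against control. For the drug efflux partners 4 of 17 rose and AHR and SLC22A3 fell. For the iron and heme partners 4 of 12 rose, HMOX1 among them, and the iron importer SLC25A37 fell.

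The subunits of potassium channels, ABCC8 and ABCC9, were at or near the floor, with 1 read in all for ABCC8 and 0 to 21 reads per library for ABCC9. ABC proteins that carry other symbols were TAP1, which loads peptides for antigen presentation and was not called (means of 531 in control, 512 with siELOVL2, 709 with siELOVL5 and 554 with both), and CFTR, which was too low to test.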

How the data were processed

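RNA of 12 A498 libraries had been sequenced on a NextSeq 500, per the labels' protocols. The deposited signal values are counts that the authors normalized: all 12 columns hold the same set of values, multiples of 1 over 12, as quantile normalization gives. No source used here gives the aligner, counting, annotation or build. Genes that reached a value of 1 in 3 or more libraries were tested with limma 3.58.1 (R 4.3.3) on log2(value + 1), with 4 group means, 8 residual degrees of freedom and an intensity trend, adjusted over 18648 genes. Reads per gene were inferred from the table order of tied values, and depth from genes with 20 to 60 such reads, a step tested on simulated data. Fold changes understate those of low genes. Members and lists were chosen with earlier results of these data known. Named are called members, the 3 largest changes per knockdown with a mean of at least 50, and members of fixed roles. Of 93 list and marker genes 91 were found. Alternatives changed the pseudocount, filter, scaling, variance model, weights, samples and replicate block. Values of 2 of the 28 members with a mean of at least 50, and of 1 partner gene, are not reported here, though counts include them.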

Additional observations from a re-analysis of the deposited data

Results flagged for a closer look

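ABCG2 and ABCB4 were the 2 members whose change differed between the single knockdowns. For ABCG2 the siELOVL5 effect minus the siELOVL2 effect was -1.08 on the log2 scale (limma adjusted p = 0.00141), with all 3 siELOVL5 libraries below all 3 siELOVL2 libraries. For ABCB4 it was -0.68 (limma adjusted p = 0.0423), also without overlap, and that call was lost when any of 10 libraries was left out (adjusted p up to 0.149).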

How the results depend on the processing

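Members called numbered 1, 0, 2, 0, 1, 2 and 6 for siELOVL2, siELOVL5 and both against control, both against siELOVL2, both against siELOVL5, siELOVL5 against siELOVL2, and the average siELOVL2 effect. The labels do not say that a replicate number marks a shared culture or day. Not every same-numbered pair of libraries had deviations from the group means correlated above 0.1, so the main fit kept group means alone. This rule cannot show that the libraries were unpaired, and any pairing is left out of the main fit. The same-numbered correlations ran from -0.001234 to 0.212 over 18 pairs, 9 of them above 0.1. Between libraries numbered 1 they were 0.1139 to 0.166, between those numbered 2 -0.001234 to 0.03168, and between those numbered 3 0.07677 to 0.212. Over 36 pairs with different numbers they ran from -0.2146 to 0.06441. As a hint from the data, 10 of 12 libraries correlated best, on average over the other groups, with their own number. Taking each library with each other group, the own number was highest in 31 of 36 cases. With the replicate block the counts were 4, 0, 10, 0, 7, 5 and 14, and 1 for the average siELOVL5 effect. Under this block ABCC2 was called with siELOVL2 (limma adjusted p = 0.00203) and with both (5.05e-04), ABCA12 (0.0172) and ABCA7 (0.0174) with siELOVL2, and ABCA7 (0.00294), ABCC1 (0.00537), ABCC3 (0.0053), ABCE1 (0.028), ABCF1 (0.0383) and ABCG2 (0.00391) with both. With library weights the counts were 6, 0, 8, 0, 6, 5 and 14, and 1 for the average siELOVL5 effect. Without the intensity trend siELOVL2, both against control and the average siELOVL2 effect gave 0, 1 and 3. A mean of at least 10 gave 3 for both against siELOVL5 and 1 for the average siELOVL5 effect, median ratio rescaling gave 1 for siELOVL5 against siELOVL2, and fitting only the groups compared gave 0 for each of these 2 contrasts between knockdowns. Leaving out 1 library gave 0 to 3 for siELOVL2, 1 to 8 for both against control, 1 to 4 for both against siELOVL5, 1 to 3 for siELOVL5 against siELOVL2 and 4 to 10 for the average siELOVL2 effect, highest without siELOVL5 replicate 3 in each, and 0 throughout for siELOVL5 against control, both against siELOVL2, the interaction and the average siELOVL5 effect. The cause was not tested. Over all genes, 254 and 825 were called with siELOVL2 and both, 861 and 1866 with the block, 1569 and 2241 with weights, and 101 and 413 without the trend. Of 5227 single-member fits under alternatives 0 called values changed sign. Members below a mean of 50 rest on few reads.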
